A study of Stylosanthes guianensis with 6 samples.

Results

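Expansins are small secreted proteins that loosen plant cell walls at acidic pH and so let growing cells, among them root and root hair cells, extend under turgor. They act without cutting the wall polymers. The alpha-expansins (EXPA) and beta-expansins (EXPB) are the families with known loosening activity, whereas the expansin-like families share the same overall protein layout and are less well understood. In soybean and rice, individual expansins are known to take part in root elongation and root hair growth, and the beta-expansin GmEXPB2 of soybean is known for its part in root growth under low phosphate.

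From the forage legume stylo (Stylosanthes guianensis), 3 expansin unigenes are described here, out of 173014 assembled transcript groups (unigenes) whose reads were counted. Cluster-8255.59013 carries the description expansin-A13 from chickpea, an alpha-expansin. Cluster-38374.0 is described as an expansin-B1-like protein of Medicago truncatula, and is called the beta-expansin here by that wording alone. The sources used here held no sequence to check its family. Cluster-8255.89924 is described as expansin-like B1-like from soybean, and by that wording belongs to the expansin-like B family rather than to the beta-expansins. All 3 were taken from the study's list of root growth genes, which holds only unigenes that had passed its test between the same libraries. Their difference between treatments was therefore what chose them, and it is given here as a description without a test. Unigenes outside the study's supplementary tables were not described in the sources used here, so other expansins of stylo were not examined.

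Roots of cultivar RY2 were compared after 21 d in nutrient solution at pH 5.8 without phosphate (LP, 0 µM KH2PO4) or with high phosphate (HP, 250 µM KH2PO4), with 3 libraries for each treatment. All seedlings had first germinated for 3 d and then grown for 14 d in nutrient solution with 250 µM KH2PO4, the dose of HP. A box of 3 seedlings made 1 replicate, so each library averages pooled plants. Libraries were grouped by their titles, LP and CK, the latter called HP here. The phosphorus field of the deposited labels reverses these doses (0 µM for the CK libraries and 250 µM for LP), so every direction below rests on the titles and the study's methods. The extraction text of the labels speaks of leaves, whereas the tissue field says root, and no root markers were available to check the tissue independently of the treatment.

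Between 15586353 and 21784888 estimated read counts were assigned per library, and each of the LP libraries was deeper than each of the HP libraries. Of all unigenes, 62040 had enough reads to be tested, and 8183 of them were called different between treatments (an edgeR adjusted p under 0.05 together with a log2 fold change no smaller than 1 either way). No library was a copy of another, with Spearman correlations of 0.892 to 0.915 within and 0.785 to 0.814 between treatments.

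Expansin-A13 was 2.04-fold higher in LP than in HP roots, whereas the expansin-like B1-like unigene was 2.04-fold lower and the expansin-B1-like unigene 7.80-fold lower. For none of the 3 did the LP and HP libraries overlap. The share of all tested unigenes without overlap was not computed. Nothing is read from the lack of overlap, since a difference between these libraries chose the members. All 3 were tested and all 3 were called, 1 higher under LP and 2 lower. For comparison, 6.09% of all tested unigenes passed in the higher direction and 7.1% in the lower one, and nothing is read from that contrast because the calls chose the members. In whole roots, fewer cells of a type and less RNA per cell cannot be told apart.

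**Figure D1:**
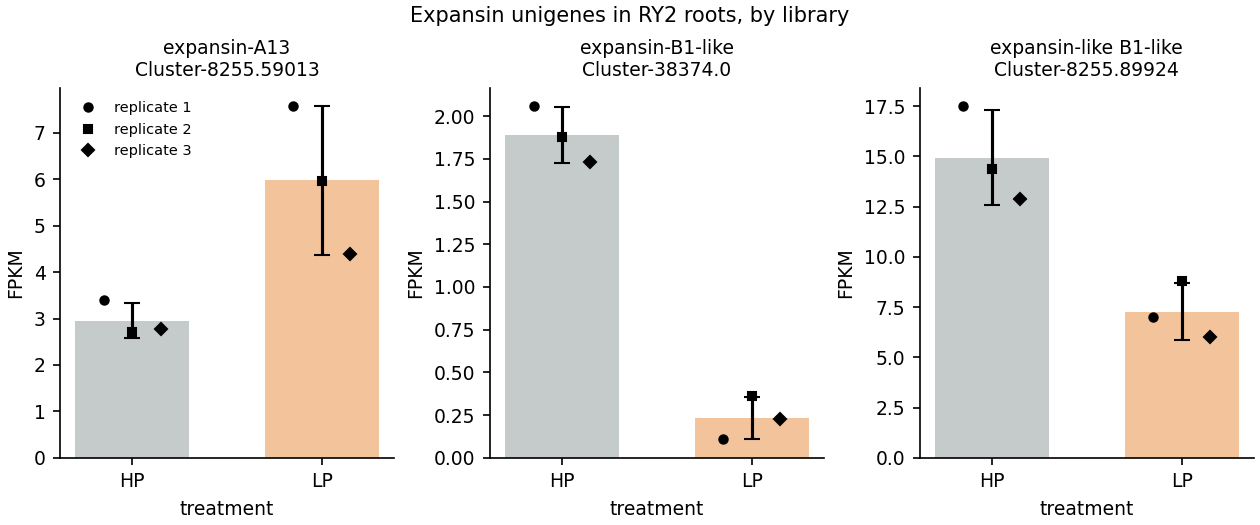
Level of each expansin unigene (FPKM, linear axes from 0 that differ between panels) in the 3 HP and 3 LP libraries. Bars are the group means, error bars the SD (n = 3), and symbols the single replicates. Expansin-A13 has its higher bar under LP, and the other unigenes have theirs under HP.

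Expansin-A13 was the one expansin of the 3 with more transcript in phosphate-starved roots. Its level, in FPKM (fragments scaled by transcript length and library depth), was 7.58, 5.97 and 4.38 in LP replicates 1, 2 and 3, and 3.40, 2.70 and 2.77 in HP replicates 1, 2 and 3. The lowest LP library still lay above the highest HP library, and LP replicate 1 was the highest of all. The group means were 5.98 ± 1.60 FPKM under LP and 2.96 ± 0.386 under HP (SD, n = 3), a log2 fold change of 1.03 from the edgeR fit on the counts. These values rest on 122.17 to 217.91 estimated reads per LP library and 55.86 to 80.23 per HP library. The coefficient of variation between libraries was 26.1% under LP and 11.8% under HP in CPM (counts scaled to library depth), which holds both the spread between boxes and the counting error of 7.72% and 12.4% expected from the reads alone.

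The call of expansin-A13 depended on which libraries were kept. Its log2 fold change lay just inside the threshold of 1, and it was called without LP replicate 3 (1.20) but not without LP replicate 1 (0.83), LP replicate 2 (1.05), HP replicate 1 (1.16), HP replicate 2 (0.97) or HP replicate 3 (0.97). Its direction was the same in each of these fits. Among the 3780 unigenes called higher under LP, 97.9% had a larger fold change.

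The expansin-B1-like unigene, the beta-expansin, was close to the lower limit of what these libraries could count in LP roots. It had 2, 6 and 4 reads in LP replicates 1, 2 and 3, and 30, 24 and 23 reads in HP replicates 1, 2 and 3. In FPKM these were 0.11, 0.36 and 0.23 under LP against 2.06, 1.88 and 1.73 under HP. Every HP library lay well above every LP library although the HP libraries were the shallower ones.

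Group means of this unigene were 0.233 ± 0.125 FPKM under LP and 1.89 ± 0.165 under HP (SD, n = 3), with a log2 fold change of -2.96. With all reads of a treatment added, 12 reads stood against 77, a depth-adjusted ratio of 8.09 in favour of HP with a 95% interval of 4.37 to 16.3 (exact binomial, for counting error only). The beta-expansin was thus present in LP roots at a low level, with reads in each library. Its spread in CPM was 50.9% under LP, where counting alone gives 50.0%, and 8.33% under HP, where counting gives 19.7%. It lost its call without HP replicate 1 (log2 fold change -2.87) and kept it without each of the other libraries. Of the 4403 unigenes called lower under LP, 26.9% had a larger fold change.

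The expansin-like B1-like unigene had the highest mean level of the 3. It reached 6.99, 8.82 and 6.01 FPKM in LP replicates 1, 2 and 3 and 17.52, 14.40 and 12.90 FPKM in HP replicates 1, 2 and 3. The HP libraries were all higher, led by HP replicate 1, and the nearest libraries of the treatments were LP replicate 2 and HP replicate 3. The means were 7.27 ± 1.43 FPKM under LP and 14.94 ± 2.36 under HP (SD, n = 3), a log2 fold change of -1.03, which is as close to the threshold as that of expansin-A13. Its CPM varied by 17.8% under LP and 15.3% under HP, with 6.90% and 5.42% expected from counting alone. It was no longer called without LP replicate 1 (-0.99), LP replicate 3 (-0.91) or HP replicate 1 (-0.86). Of the unigenes called lower, 97.8% had a larger fold change.

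**Figure D2:**
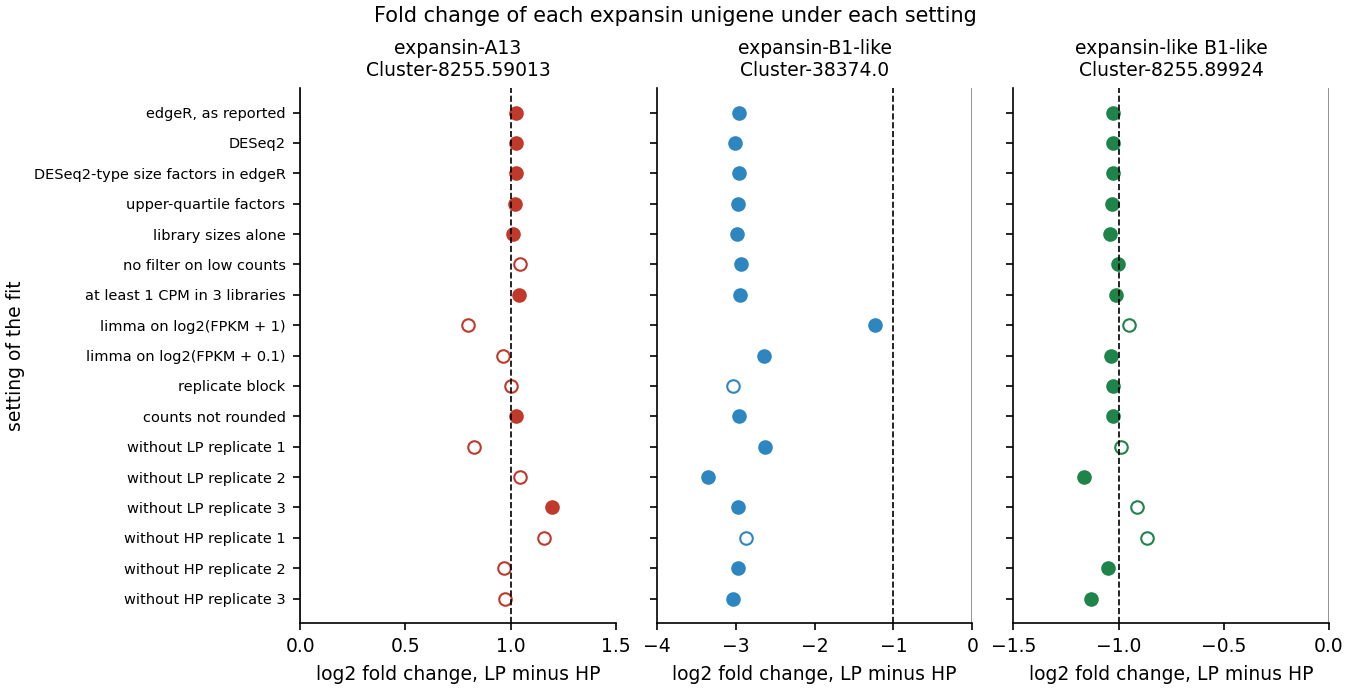
Log2 fold change (LP minus HP, horizontal axis) of each expansin unigene in the reported fit and in each of 16 alternatives that give their own fold change (vertical axis), including those that leave out 1 library. Filled circles were called, open circles were not, and the dashed line marks the threshold of 1. No value crosses 0, while expansin-A13 and the expansin-like unigene sit on the threshold and the beta-expansin lies beyond it.

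HP replicate 1 held the highest HP level of each of the 3 expansins, so leaving it out moved the fold change of expansin-A13 away from 0 and those of both other unigenes towards 0. None of the 3 was called without it. The highest LP level came from LP replicate 1 for expansin-A13, but from LP replicate 2 for both other unigenes. LP replicate 1 was also the library with the fewest reads of the beta-expansin. The SD of log2 CPM within treatments was 0.29 for expansin-A13, 0.36 for the beta-expansin and 0.23 for the expansin-like unigene. The test that chose the members used this spread, and a prior count of 2 reads lowers it for the beta-expansin, so it is given as a value only.

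The order of the expansins was set beside their change. Levels of different unigenes were compared per length, as log2 of FPKM plus 0.1 within each library. The members were chosen by their difference between treatments in these same libraries, so these comparisons are not independent of that choice. Averaged over the 6 libraries, the expansin-like unigene exceeded the beta-expansin by 3.72 ± 0.94 on the log2 scale (SD, n = 6, higher in 6 of 6 libraries, two-sided exact permutation test by sign flips, p = 0.03125, adjusted over 3 pairs p = 0.0469). Expansin-A13 exceeded the beta-expansin by 2.42 ± 2.05 (6 of 6 libraries, exact permutation p = 0.03125, adjusted p = 0.0469). That p is the smallest that 6 libraries allow. In FPKM, expansin-A13 was 16.6- to 68.9-fold above the beta-expansin in LP libraries but 1.44- to 1.65-fold in HP libraries. Their mean difference therefore holds much of the treatment difference that chose them.

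Between expansin-A13 and the expansin-like unigene the test over both treatments together did not settle the order, and the ranges differed by treatment. Their mean difference was -1.30 ± 1.12 on the log2 scale, with the expansin-like unigene higher in 5 of 6 libraries (exact permutation p = 0.0625, adjusted p = 0.0625). LP replicate 1 was the library in which expansin-A13 was the higher of the pair. Under HP the ranges did not touch, with 12.90 to 17.52 FPKM for the expansin-like unigene, 2.70 to 3.40 for expansin-A13 and 1.73 to 2.06 for the beta-expansin. Under LP the ranges of the upper pair overlapped, at 6.01 to 8.82 and 4.38 to 7.58 FPKM. The beta-expansin stayed lowest there at 0.11 to 0.36 FPKM. Within 1 treatment, 3 libraries cannot give an exact p below 0.25, so this order is given by the ranges alone.

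With opposite directions among the 3, their mixture differed between treatments. The ratio of the expansin-like unigene to expansin-A13, which does not depend on how libraries are scaled, was 0.922, 1.48 and 1.37 in LP replicates 1, 2 and 3, and 5.15, 5.33 and 4.66 in HP replicates 1, 2 and 3. The pair thus lay within 1.48-fold of each other in each LP library and 4.66- to 5.33-fold apart in each HP library. Of the FPKM summed over the 3, expansin-A13 made up 51.6%, 39.4% and 41.2% under LP but 14.8%, 14.2% and 15.9% under HP. The beta-expansin made up 0.749%, 2.38% and 2.17% under LP and 8.96%, 9.91% and 9.94% under HP. The shares and the ratio restate the fold changes that chose the members and are no further evidence of them.

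The sum itself was lower under LP. It was 14.68, 15.15 and 10.62 FPKM in LP replicates 1, 2 and 3, and 22.98, 18.98 and 17.40 in HP replicates 1, 2 and 3. Every LP sum lay below every HP sum, although expansin-A13 itself was higher under LP. The expansin-like unigene made up 47.6% to 76.2% of the sum. The lower sum thus restates the fold changes that chose the members, and nothing is read from its lack of overlap. Other expansins were not examined, so the sum is no measure of all expansin transcript.

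**Figure D3:**
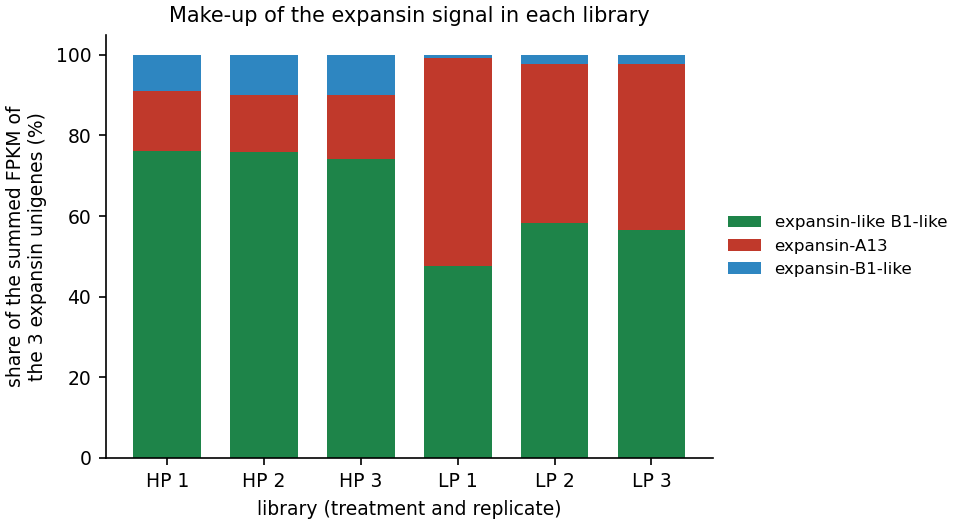
Share of the summed FPKM of the 3 expansin unigenes (vertical axis, %) held by each of them in each library (horizontal axis). The expansin-like B1-like unigene holds 74.1% to 76.2% of the sum in the HP libraries and 47.6% to 58.2% in the LP libraries. Expansin-A13 is the unigene whose share is larger under LP.

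The assembled sequences differed in length and in how surely reads belonged to them. The counts and FPKM together imply effective lengths of 1320 to 1327 bases for expansin-A13, 1364 to 1372 for the expansin-like unigene and 807 to 835 for the beta-expansin, whose low LP values are rounded. Estimated counts of the beta-expansin were whole numbers, within 0.005 of a read, in 6 of 6 libraries. Those of expansin-A13 were fractional in 6 libraries and those of the expansin-like unigene in 5, so some of their reads were shared with other unigenes and divided by estimation. Across all 173014 unigenes, 34.0% to 36.4% had fractional counts in a library. Unigenes without reads in a library count as whole there, so the share among unigenes with reads is higher. The shares that other gene copies hold of these reads were not tested.

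The place of each expansin among the other unigenes is given as a description, since the treatment difference chose the members. By FPKM within a library, the beta-expansin ranked between the 60.3 and 63.9 percentile of detected unigenes under HP and between 4.64 and 26.3 under LP. Expansin-A13 moved from 68.4 to 71.7 under HP to 76.4 to 83.9 under LP. The expansin-like unigene ranked high in both, at 87.5 to 90.5 under HP and 80.4 to 84.6 under LP.

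**Figure D4:**
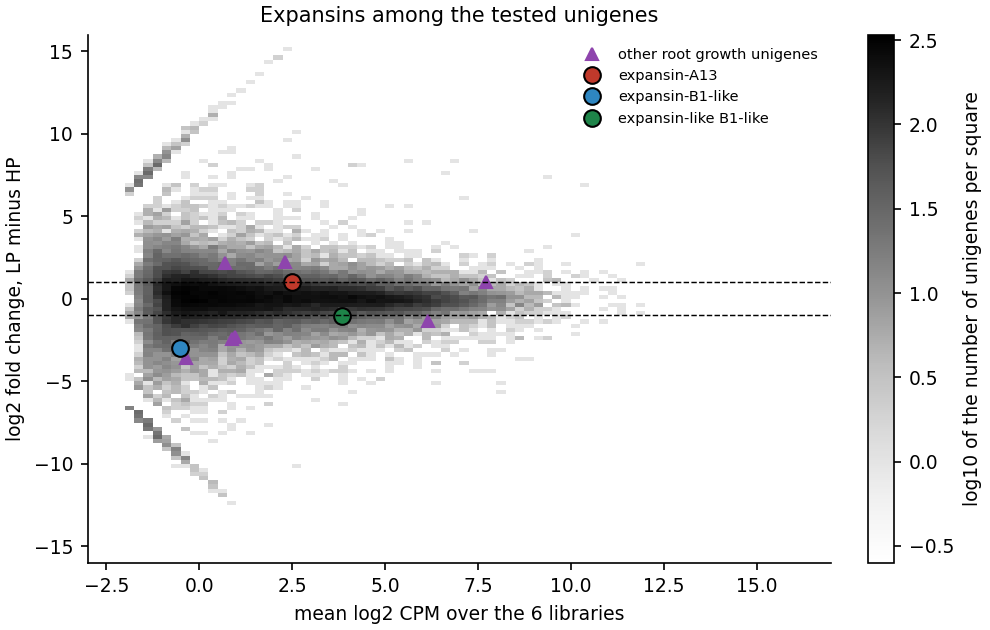
Log2 fold change (LP minus HP, vertical axis) against mean log2 CPM over the 6 libraries (horizontal axis). Grey squares count all 62040 tested unigenes, circles are the 3 expansins, triangles the 7 other root growth unigenes that were tested, and dashed lines mark a log2 fold change of 1 in either direction. Expansin-A13 and the expansin-like unigene lie on the dashed lines, and the beta-expansin lies below them. The diagonal arms are unigenes with no read in 1 of the treatments, whose fitted fold changes have no fixed size.

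The expansins were listed together with 9 other unigenes of root growth, which were likewise chosen on these libraries. Of those, 7 were tested and 6 were called, 3 higher and 3 lower under LP, where 6.09% and 7.1% of all tested unigenes were called in these directions. Their median log2 fold change was -1.33 (0.03 over all tested unigenes), and nothing is read from the count or the median of a list so chosen. Log2 fold changes among the 7 ran from -3.60 to 2.24. The most abundant was Cluster-8255.67463, described as auxin-induced in root cultures protein 12, a cell-surface protein first found among auxin-responsive transcripts, at 316.7 ± 35.6 FPKM under LP and 155.1 ± 4.11 under HP (SD, n = 3). Its log2 fold change of 1.04 was close to that of expansin-A13 at a much higher level. The least abundant was Cluster-8255.40210, described as aberrant root formation protein 4, with 0 reads in each LP library and 22, 26 and 0 reads in HP replicates 1, 2 and 3, too few to be tested.

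Each expansin had a different nearest neighbour among these root growth unigenes. Likeness was measured as the root mean square difference of log2 CPM over the 6 libraries after centring each unigene on its own mean, so small values mean like profiles. Expansin-A13 was nearest to the auxin-induced protein (0.17). The beta-expansin was nearest to Cluster-8255.28286, described as ROOT HAIR DEFECTIVE 3 homolog 2-like (0.36), with 0.23, 0.46 and 0.28 FPKM in LP replicates 1, 2 and 3 and 1.80, 1.06 and 2.06 in HP replicates 1, 2 and 3.

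The expansin-like unigene was nearest to Cluster-8255.68495, described as ROOT HAIR DEFECTIVE 3 homolog 1-like (0.24), with means of 15.77 ± 1.19 FPKM under LP and 40.0 ± 3.90 under HP (SD, n = 3). In Arabidopsis, ROOT HAIR DEFECTIVE 3 shapes the endoplasmic reticulum and is needed for normal root hairs. Both homologues were lower under LP, with log2 fold changes of -2.32 and -1.33, and both were called.

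Over all 1235 tested unigenes that carry a protein name in the study's lists, the 3 nearest profiles of each expansin were taken. Those lists cover transporters, phosphatases, transcription factors, hormone signalling, root growth and the portion of differing unigenes that could be read. The kinds of neighbour found are therefore limited by what those lists held. The study listed all of these unigenes as differing between the treatments. Nearest to expansin-A13 were Cluster-8255.51354 (0.14), a CCCH zinc finger protein, Cluster-8255.43727 (0.16), a probable peptide/nitrate transporter, and Cluster-8255.67463 (0.17), the auxin-induced protein. Nearest to the beta-expansin were Cluster-8255.53894 (0.11), described as zinc transporter 2, Cluster-8255.58125 (0.20), a peptide/nitrate transporter, and Cluster-8255.60331 (0.23), described as the sodium transporter HKT1. Nearest to the expansin-like unigene were Cluster-8255.52817 (0.08), a TCP9 transcription factor, Cluster-8255.73304 (0.13), a zinc transporter 4-like protein, and Cluster-8255.79627 (0.16), a sugar transporter of the ERD6-like kind. Neighbours were picked for small distance to a unigene that differed between treatments, so their sharing its direction follows from that choice.

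**Figure D5:**
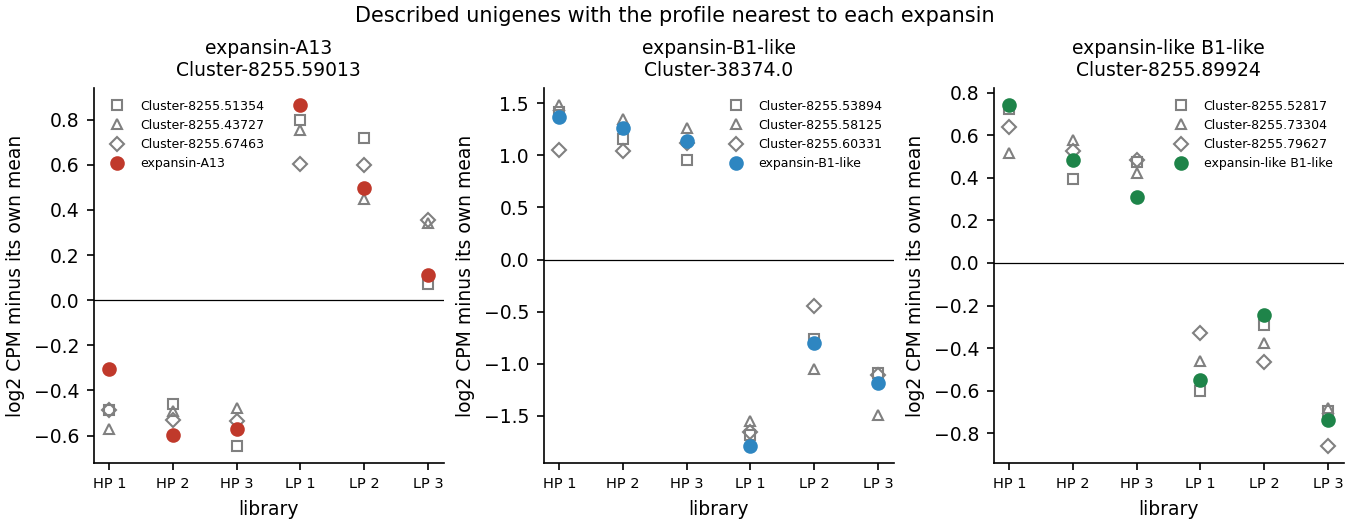
Log2 CPM minus the unigene's own mean (vertical axis) in each library (horizontal axis) for each expansin (filled circles) and for the 3 described unigenes with the nearest profile (open symbols). The expansin-like unigene and its neighbours are lowest in LP replicate 3, and the beta-expansin and its neighbours in LP replicate 1.

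Other wall proteins were followed through a list of cellulose synthases, pectin- and hemicellulose-cutting enzymes, glucanases, laccases and peroxidases. It held 18 unigenes out of 1272 rows of differing unigenes that could be read, which were only a portion of the full listing and were chosen on these libraries. Of these, 15 were tested and 15 called, 6 higher and 9 lower under LP. Over all tested unigenes 6.09% and 7.1% were called in these directions, and nothing is read from the count of a list so chosen. All 9 lower unigenes had 0 reads in LP, and 4 of the 6 higher ones had 0 reads in HP, so their fold changes are bounds. With 3 reads over the group set in place of 0, the median log2 ratio of the list was -4.30. That median follows from the split of 9 to 6 in a list of unigenes that had all been called different, and nothing is read from it. None of the 3 expansins went to 0 in either treatment. The wall list held no expansin, and its smallest fitted log2 fold change in either direction, 4.56, was beyond that of any expansin. Nothing is read from this contrast, since it depends on which rows could be read. The number of wall unigenes called higher was 1 without LP replicate 2, 2 without LP replicate 1 and 3 without HP replicate 1.

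The most abundant wall unigenes called higher under LP were uneven between replicates. Cluster-8255.80096, a probable polygalacturonase, which cuts pectin, had 35.87, 37.44 and 1.45 FPKM in LP replicates 1, 2 and 3 and 0.57, 0.79 and 0.30 in HP replicates 1, 2 and 3. Its LP level thus rested on LP replicates 1 and 2, with LP replicate 3 only just above the HP libraries. Cluster-8255.71331, beta-galactosidase 1, which trims galactose from wall polymers, had 1.29, 6.24 and 3.82 FPKM under LP and 0, 0 and 0.48 under HP.

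Cluster-8255.55583, described as Laccase-4, an enzyme of lignin polymerisation, had 7.41, 5.54 and 8.49 FPKM in HP replicates 1, 2 and 3 and no read in LP, at least 299.6-fold lower there against a floor of 3 reads over the group. Cluster-8255.101246, described as glucan endo-1,3-beta-glucosidase 1, had 4.75, 2.89 and 3.87 FPKM under HP and no read in LP, at least 171.0-fold lower. Unigenes are assembled sequences, and alleles or copies of 1 gene can fall into separate unigenes. Whether reads of these wall genes went to another unigene in the other treatment was not tested.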

How the data were processed

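Root RNA of 3 LP and 3 HP boxes was sequenced after poly(A) selection. Per the study's methods, the authors assembled unigenes with Trinity and deposited, for each library, RSEM expected counts (estimated read counts that need not be whole) and FPKM values. Bowtie2 2.2.3 is named in the submitters' processing notes, and the sources used here do not say whether counting used strand. FPKM deposited by the authors were used for levels. Expected counts were rounded and tested in edgeR 4.0.16 (R 4.3.3, limma 3.58.1) by the quasi-likelihood test, with unigenes filtered at a minimum count of 10 and TMM factors. P-values were adjusted by Benjamini-Hochberg over all 62040 unigenes tested, and calls required a value under 0.05 plus a log2 fold change no smaller than 1 either way. The edgeR p-values weigh the treatment difference against the spread between boxes, counting error included. The script was tested on simulated data. Alternatives were DESeq2 1.42.0, other scalings, filters and thresholds, limma on log2 FPKM with a pseudocount of 0.1 or 1, a replicate block and each library left out. Levels were compared by exact sign-flip permutation in Python 3.11.15 (scipy 1.17.1), over the 6 libraries of both treatments together.

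The members and gene lists were chosen with earlier results of these data known. Named unigenes are the expansins, the most and least abundant other root growth unigenes and the one nearest to each expansin, the 3 nearest described profiles per expansin, and the 2 most abundant called wall unigenes per direction. Protein descriptions came from the study's supplementary tables. Counting intervals cover counting error only.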

Additional observations from a re-analysis of the deposited data

How the results depend on the processing

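No expansin changed direction under any alternative, and over 18 of them the beta-expansin was called in 14, the expansin-like unigene in 13 and expansin-A13 in 7. Of the 3 expansins, 1 was called by limma on log2(FPKM + 1), 1 at an adjusted p of 0.01, 0 when tested against a log2 fold change of 1 (glmTreat), and 0 to 2 with 1 library left out, where fewer samples entered. Limma on log2(FPKM + 1) gave the beta-expansin a log2 fold change of -1.23, since that pseudocount exceeds its LP level, and leaving out 1 library gave -3.36 to -2.63. Over all unigenes 8183 were called, 4214 at an adjusted p of 0.01 and 3053 by glmTreat, and 5586 to 8183 with 1 library left out. The other root growth unigenes called were 2 by glmTreat and 5 to 6 with 1 library left out. The cell wall unigenes called were 9 with at least 1 CPM in 3 libraries (9 tested), 9 by limma on log2(FPKM + 1), 7 at an adjusted p of 0.01 and 10 to 14 with 1 library left out. With 5 libraries the exact permutation test cannot give p below 0.0625, and the log2 differences were then 1.87 to 2.80 for expansin-A13 over the beta-expansin and 3.44 to 3.89 for the expansin-like unigene over it. The causes of these changes were not tested where none is named. Same-numbered LP and HP replicates did not deviate together (correlations -0.006, 0.040 and 0.049), so the numbers were not taken as pairs. With the replicate number as a block, 1 of the 3 expansins (the expansin-like unigene), 5167 unigenes in all, 4 other root growth unigenes and 6 cell wall unigenes were called. Depth limits the beta-expansin most, at 2 to 6 reads per LP library.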
